A study of Mus musculus with 10 samples.

Results

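The LIM-only proteins Lmo2 and Lmo4, their scaffold Ldb1 and the basic helix-loop-helix (bHLH) factors Lyl1 and Tal1 were examined in invariant natural killer T (iNKT) cells of the thymus. The 5 genes were taken by name, and each was represented by the 1 probe set that the platform annotation assigns to it, so 5 probe sets of 45037, and 5 genes of the 18193 named by a probe set of their own, are described. The set was selected on the measured genotype differences of Lmo2 and Lmo4, which ran in opposite directions between cells with and without Id3. The genotype differences of all 5 genes are therefore given as a description, with no test, and nothing is supported with them. RNA came from wild-type (WT) mice and from mice that lack Id3 (Id3KO), all 6 weeks old and of strain C57BL/6. Cells that bound the tetramer and carried neither CD24 nor NK1.1 were sorted into CD44-negative stage 1 and CD44-positive stage 2. Stage 1 was measured on 2 arrays of each genotype and stage 2 on 3 arrays of each, 10 arrays in all. The labels call the replicates biological but do not say whether an array held 1 mouse or a pool, nor how Id3 was inactivated, so p-values measure the spread between these samples.

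LIM-only proteins consist of a pair of LIM zinc-binding domains and bind no DNA themselves. They join Ldb1, which self-associates, to DNA-bound factors, so that GATA proteins and bHLH dimers come to lie in one complex. Within such a dimer Tal1 or Lyl1 pairs with an E protein, a ubiquitous bHLH factor encoded by Tcf3, Tcf4 or Tcf12. Id proteins such as Id3 also pair with E proteins and keep them from DNA. Lmo2, Lyl1 and Tal1 act in blood stem and progenitor cells, are shut down as T cells mature, and are oncogenes in T cell leukaemia, whereas Lmo4 is widely expressed. E proteins bind the E-box, CANNTG, and GATA factors the letters GATA.

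Start-site sequences of the members are shown because this family acts through E-box and GATA sites. The RefSeq promoter table (GRCm38.p6) held 9 start sites of 4 of the members, Lmo4, Ldb1, Lyl1 and Tal1; Lmo2 had none. In the 250 bases before each site, searched on both strands, an E-box was found for 2 of the 3 Lmo4 sites, 1 of 3 for Ldb1, the 1 of Lyl1 and 0 of 2 for Tal1. That is 4 of 9 windows, against 66.2% of the 32851 windows of this length in the table. GATA, in either orientation, was found in 1 window of Ldb1 and 1 of Tal1, or 2 of 9, against 53.6% of all windows. CANNTG reads the same on both strands. The lines below give both separate upstream windows of Lmo4, whose genotype difference was large, and that of Lyl1, which differed little, each 5′ to 3′ with E-boxes in capitals.
Lmo4, first start, chr3:144205256-144205505, minus strand: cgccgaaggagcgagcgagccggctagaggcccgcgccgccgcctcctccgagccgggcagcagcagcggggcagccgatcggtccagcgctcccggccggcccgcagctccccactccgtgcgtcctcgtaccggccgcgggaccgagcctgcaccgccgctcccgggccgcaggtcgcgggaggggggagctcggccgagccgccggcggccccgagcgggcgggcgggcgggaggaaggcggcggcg
Lmo4, second start, chr3:144202397-144202646, minus strand: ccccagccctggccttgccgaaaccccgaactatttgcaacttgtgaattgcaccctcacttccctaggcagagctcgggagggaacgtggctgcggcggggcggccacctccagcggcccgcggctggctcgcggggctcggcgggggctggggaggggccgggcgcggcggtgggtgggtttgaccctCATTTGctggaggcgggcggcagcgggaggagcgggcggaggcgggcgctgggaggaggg
Lyl1, chr8:84701207-84701456, plus strand: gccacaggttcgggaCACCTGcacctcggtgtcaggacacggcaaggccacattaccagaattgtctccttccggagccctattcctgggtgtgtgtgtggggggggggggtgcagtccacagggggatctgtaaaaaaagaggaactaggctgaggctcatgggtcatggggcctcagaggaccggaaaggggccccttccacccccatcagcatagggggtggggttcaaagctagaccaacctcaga
The first Lmo4 window was 82.4% G and C and held no E-box. The second held CATTTG at position -60 from the start, and the third Lmo4 window shares 186 bases and this site with it. Lyl1 held CACCTG at position -235. A match is a description of letters, not of a bound site.

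The targeted gene Id3 stood between 818.2 and 1289 on the 5 WT arrays and between 54.2 and 69.8 on the 5 Id3KO arrays, as the labels state. Zbtb16, the factor PLZF of iNKT cells, and the T cell receptor chains Cd3d, Cd3e and Cd3g were bright in every group, and the 7 iNKT and sort genes named on the array summed to 8100 to 9369. Among these 7 is Cd24a, whose product the sort excluded. At its brightest probe set it read 103.3 on WT stage 1 replicate 1 and 40.2 to 60.9 on the other arrays. Klrb1c, which encodes NK1.1, was not analysed here. Array medians lay between 54.8 and 55.5, and arrays correlated at 0.975 to 0.989 within groups and 0.962 to 0.989 between them. With 2 or 3 arrays a group, the small number of arrays sets the precision. A probe set was tested when it exceeded the median of the whole table, an intensity of 55.1, on at least 2 arrays, as 25061 did, and below this level it is called dim.

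Lmo2 was brighter in Id3KO than in WT cells at both stages, Lmo4 was dimmer at both, and Ldb1, Lyl1 and Tal1 differed by far less. For Lmo2 (probe set 1454086_a_at), the bridge to Tal1 or Lyl1 and GATA factors, the WT arrays read 90.2 and 79.6 at stage 1 and 72.5, 73.5 and 76.8 at stage 2. The Id3KO arrays read 149.8 and 163.4 at stage 1 and 229.6, 264.9 and 211.8 at stage 2. Every Id3KO array lay above every WT array, and the 3 stage 2 arrays without Id3 were the brightest of the 10. All 10 arrays exceeded the level of 55.1. The group means were 84.9 ± 7.54 and 74.2 ± 2.24 in WT and 157 ± 9.62 and 235 ± 27.0 in Id3KO cells (SD, n = 2 and 3 for stages 1 and 2).

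The difference of Lmo2 between Id3KO and WT was 1.85-fold at stage 1 (log2 0.89 ± 0.12, SE) and 3.16-fold at stage 2 (log2 1.66 ± 0.10, SE). It ranked 198th from the top of 25061 probe sets at stage 1 and 32nd at stage 2. Arrays of sorted populations cannot tell less RNA per cell from fewer cells of a type, here or below.

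Lmo4 (1420981_a_at), a LIM-only protein that competes for the same scaffold, went the other way. The WT arrays read 635.1 and 618.0 at stage 1 and 447.3, 465.7 and 498.2 at stage 2. The Id3KO arrays read 170.0 and 213.7 at stage 1 and 249.0, 227.0 and 267.9 at stage 2. All 5 Id3KO arrays were dimmer than all 5 WT arrays, with the low point in stage 1 cells without Id3. Means were 626 ± 12.1 and 470 ± 25.7 in WT and 192 ± 30.9 and 248 ± 20.5 in Id3KO cells (SD, n = 2 and 3). The difference was 3.29-fold at stage 1 (log2 -1.72 ± 0.13, SE), the 13th lowest of 25061, and 1.90-fold at stage 2 (log2 -0.93 ± 0.10, SE), the 206th lowest.

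**Figure D1:**
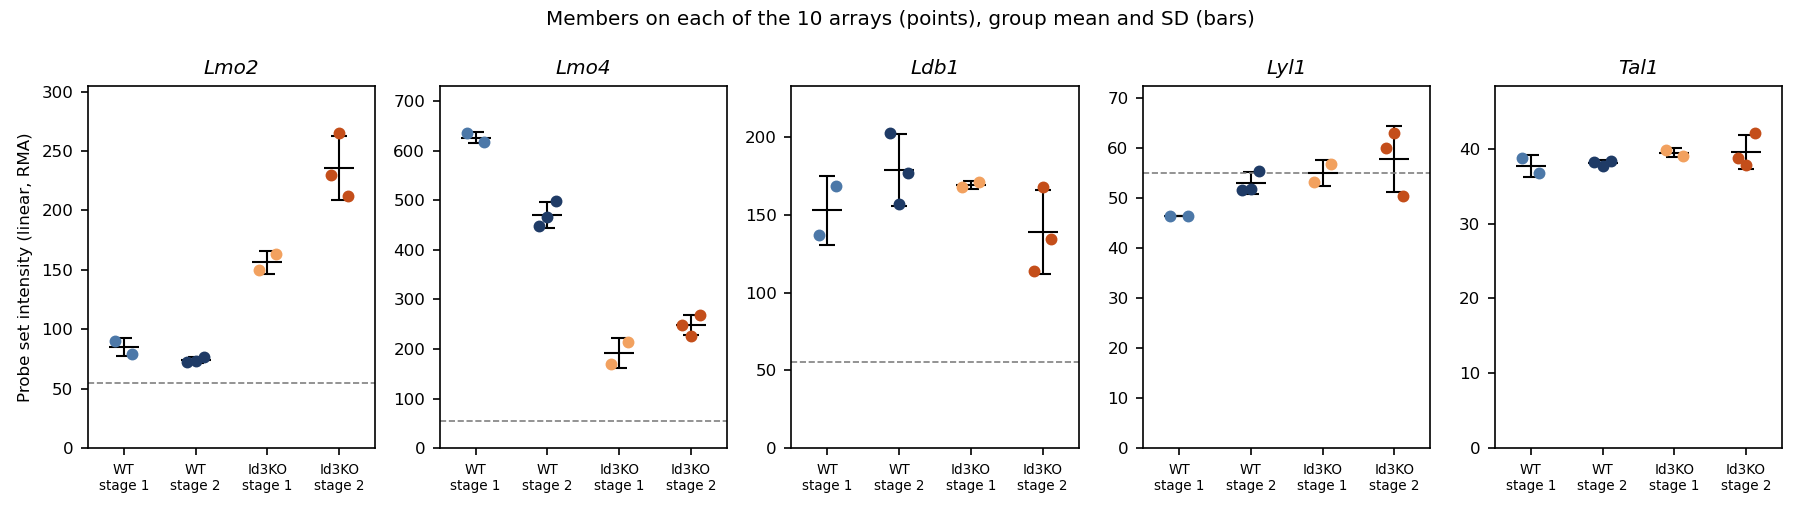
Probe set intensity on the linear scale (y axis, from 0) of the 5 members in the 4 groups (x axis); points are arrays, bars the group mean and SD, and the dashed line the level of 55.1 for keeping a probe set. Lmo2 is higher and Lmo4 lower on all 5 Id3KO arrays, Ldb1 overlaps, Lyl1 lies around the level and Tal1 below it.

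Ldb1 (1452024_a_at), the scaffold that both LIM-only proteins need, was bright in all groups and overlapped between genotypes. It read 137.1 and 168.4 in WT stage 1 cells, 202.2, 156.5 and 177.0 in WT stage 2 cells, 167.4 and 170.6 in Id3KO stage 1 cells and 114.1, 167.4 and 134.3 in Id3KO stage 2 cells. The lowest array was replicate 1 of Id3KO stage 2 and the highest replicate 1 of WT stage 2. The genotype difference was 0.15 ± 0.19 at stage 1 and -0.38 ± 0.15 at stage 2 (log2, SE).

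Lyl1 (1419120_at), a bHLH partner of Lmo2, stood at the border of the dim range. It read 46.4 on both WT stage 1 arrays, 51.6, 52.0 and 55.6 at WT stage 2, 53.3 and 56.9 at Id3KO stage 1 and 60.1, 63.0 and 50.4 at Id3KO stage 2. It was tested because 4 of the 10 arrays exceeded 55.1, 3 of them Id3KO arrays, so it could enter mainly from the side where it was brighter. Its genotype difference was 0.25 ± 0.11 at stage 1 and 0.12 ± 0.09 at stage 2 (log2, SE), without overlap at stage 1 and with overlap at stage 2. Both WT stage 1 arrays were dim, so differences against that group are not measured on both sides. Of the 3 WT stage 2 arrays only 1 exceeded the level (mean 53.1), so differences against this group also lie largely below it.

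Tal1 (1449389_at), the other bHLH partner, exceeded the level on 0 of the 10 arrays and was not tested. It lay between 36.7 and 42.0 on all arrays, with means of 37.7 ± 1.46 and 38.1 ± 0.34 in WT and 39.5 ± 0.61 and 39.5 ± 2.22 in Id3KO cells (SD, n = 2 and 3). Of all probe sets of the array, 13.3% were dimmer on average. Of the 4 members tested, 3 had arrays that did not overlap between genotypes at stage 1, as did 41.5% of all probe sets tested, and 2 at stage 2, as did 21.4%. This contrast chose the members, and nothing is read from these counts.

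**Figure D2:**
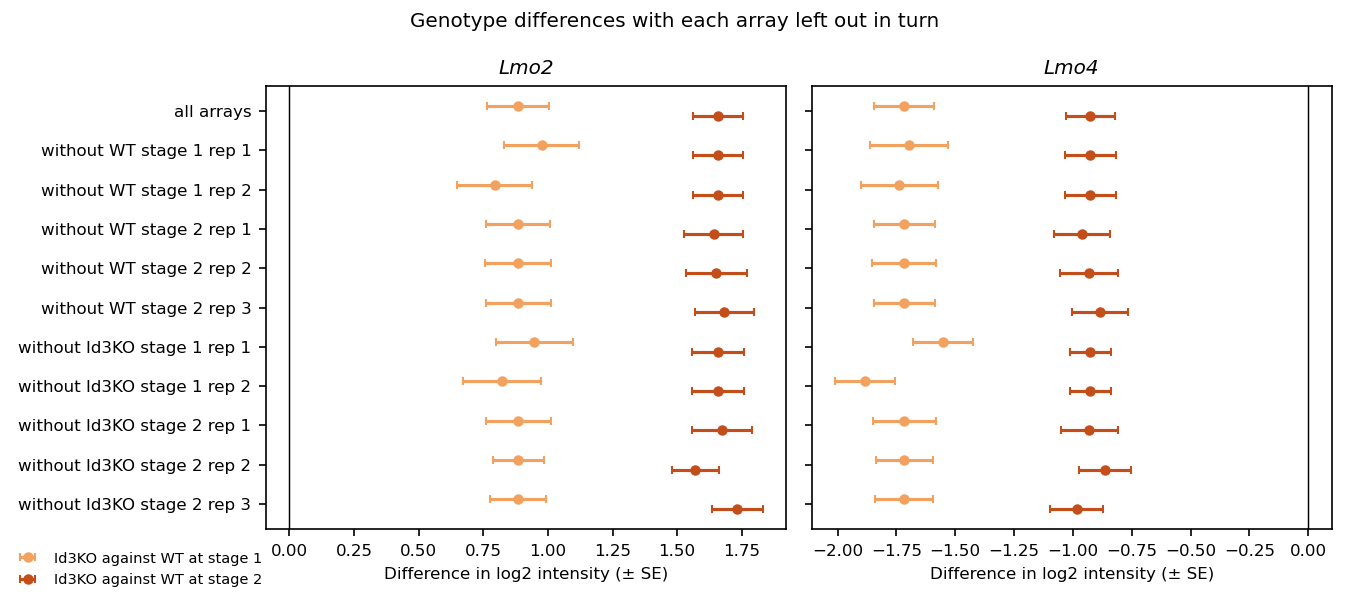
Log2 difference between Id3KO and WT cells (x axis, with SE) of Lmo2 and Lmo4 at stage 1 and stage 2, with all arrays and with each of the 10 arrays left out in turn (y axis). The difference of Lmo2 lay between 0.79 and 0.98 at stage 1 and 1.57 and 1.73 at stage 2, and that of Lmo4 between -1.88 and -1.55 and between -0.98 and -0.86.

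The change from stage 1 to stage 2 was tested with limma. It uses the same arrays as the genotype differences on which the set was selected. Its p-values, ranks and counts for the members, here and in the next paragraph, are therefore not independent of that choice. In WT cells Lmo4 stood lower at stage 2 by 0.41 ± 0.12 on the log2 scale (SE, 95% interval of the difference -0.68 to -0.15), and all 3 stage 2 arrays were dimmer than both stage 1 arrays. The unadjusted p was 0.0060 and the limma adjusted p 0.392, so the difference did not pass the test over all probe sets. Lmo2 was at -0.19 ± 0.11 (limma adjusted p = 0.730), Ldb1 at 0.22 ± 0.17 (0.821) and Lyl1 at 0.19 ± 0.10 (0.703), with 95% intervals of -0.44 to 0.06, -0.16 to 0.61 and -0.04 to 0.43. Of the 4 members 0 were called by limma and 1 had an unadjusted p under 0.05, against 0.016% called and 8.06% with such an unadjusted p over all probe sets. Arrays did not overlap for 3 of the 4 members, against 26.2% of all. Lyl1 was 1 of these 3, and its WT arrays lay largely in the dim range.

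In Id3KO cells the LIM-only genes stood higher at stage 2. Lmo2 was at 0.58 ± 0.11 (log2, SE, 95% interval 0.34 to 0.83), or 1.5-fold, with an unadjusted p of 0.00050 and a limma adjusted p of 0.901. It ranked 48th from the top of 25061. Lmo4 was at 0.38 ± 0.12 (0.11 to 0.64, unadjusted p 0.0101, limma adjusted p near 1.00), with all 3 stage 2 arrays above both stage 1 arrays. Ldb1 was at -0.30 ± 0.17 (-0.69 to 0.09) and Lyl1 at 0.06 ± 0.10 (-0.17 to 0.30), and neither passed (limma adjusted p near 1.00 for each). Over the 4 members 0 were called by limma and 2 had an unadjusted p under 0.05, where 0% of all probe sets were called and 4.51% had such an unadjusted p. Arrays did not overlap for 3 of 4 members, as for 18.4% of all. For Ldb1 this rests on an array of each stage that both read 167.4 after rounding.

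Lmo2 and Lmo4 thus lay lower at stage 2 than at stage 1 in WT cells and higher in Id3KO cells, with no called change in either genotype. The genotype difference moved up from stage 1 to stage 2 by 0.77 ± 0.15 for Lmo2 and 0.79 ± 0.16 for Lmo4 (log2, SE, given as a description). For Lmo2 this is a wider gap at stage 2, and for Lmo4 a narrower one. Across all probe sets 0 interactions were called by limma, with 7.07% at an unadjusted p under 0.05. The same quantity was -0.53 ± 0.24 for Ldb1 and -0.13 ± 0.15 for Lyl1.

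**Figure D3:**
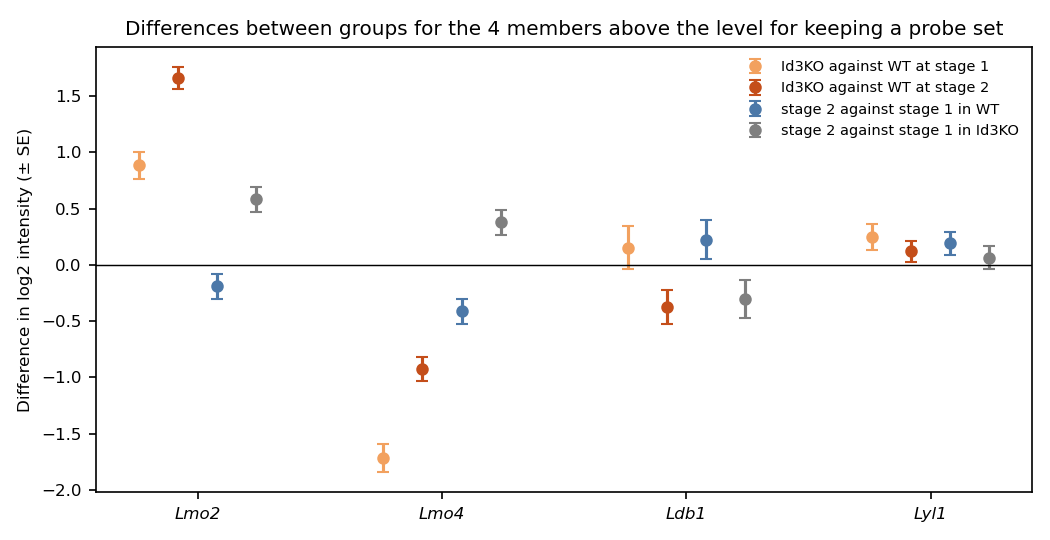
Difference in log2 intensity (y axis, points with SE) of the 4 members above the level for keeping a probe set, for both genotype comparisons and both stage comparisons. Lmo2 and Lmo4 have genotype differences of opposite sign, and for both the stage difference is below 0 in WT and above 0 in Id3KO cells.

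The other LIM-only and LDB genes were mostly dim. Lmo1, Lmo3 and Ldb2, paralogues that act mainly in other tissues, were tested for 0 of 3 genes because none reached the level on 2 arrays; Lmo1 read 59.4 on Id3KO stage 1 replicate 2. Of 9 further tissue-restricted bHLH genes, 2 were tested. Tcf24, a bHLH factor, read 45.2 to 54.5 on the WT arrays, all in the dim range, and 159.3 to 372.8 on the Id3KO arrays, through which alone it was kept. It was at least 5.32-fold higher in Id3KO cells at stage 1 and at least 3.84-fold higher at stage 2, with dim arrays set at the level of 55.1. These bounds were not tested, and the limma adjusted p of Tcf24 (0.0232 and 0.00677) belongs to the measured differences. The stage 1 call of Tcf24 was lost without either stage 1 array of WT or of Id3KO, or without WT stage 2 replicate 2. Bhlhe40, a bHLH repressor of activated T cells, fell at stage 2 by 0.38 ± 0.08 (SE, limma adjusted p = 0.0356), a call lost without any 1 of 7 arrays, WT stage 2 replicates 2 and 3 and all 5 Id3KO arrays. Over all genes, by their brightest probe set, 0.586% were higher and 0.452% lower at stage 1, and 2.36% and 3.22% at stage 2.

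Among E and Id proteins 5 of 7 genes were tested, and Id3 itself was the 1 called, at both stages. The E proteins Tcf3 (-0.18 at stage 1 and -0.06 at stage 2), Tcf12 (-0.09 and -0.12) and Tcf4 (-0.42 and -0.12) did not pass. Tcf4 had group means of 40.8 to 54.5, all in the dim range, and was kept through WT arrays alone, so its differences lie largely below the level. Id2, the related inhibitor, stood lower on all Id3KO arrays. Its brightest probe set did not pass at stage 2 (-0.70, limma adjusted p = 0.0583), while its 2 dimmer ones fell by 0.76 and 0.62 (limma adjusted p = 0.0368 and 0.0273), where 0.802% of all probe sets were called at stage 1 and 4.21% at stage 2. The first of these calls (1422537_a_at) was lost without any 1 of 9 arrays, all but Id3KO stage 2 replicate 3. The second (1453596_at) was lost without WT stage 2 replicate 1 or 3 or Id3KO stage 2 replicate 1 or 2.

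Of 19 genes for partners of Ldb1, 18 were tested, and by their brightest probe sets 0 were called by limma at either stage, with 1 and 2 at an unadjusted p under 0.05. Their median was -0.07 at each stage, against -0.02 and 0.01 for all genes. Gata3, the GATA factor of T cells, stood at -0.26 and 0.10, Runx1 at -0.29 and -0.22, and Ssbp3, a single-stranded DNA-binding protein that stabilises Ldb1, at -0.21 and -0.22. Gata1 and Gata2, the GATA partners of Lmo2 in blood progenitors, had mean log2 levels between 5.82 and 5.97 in every group, just above the dim range, and differed by at most 0.07 between genotypes. Fli1, an ETS factor found with Lmo2 and Tal1 at progenitor enhancers, was lower on every Id3KO array at both of its probe sets. The brighter (1422024_at) did not pass (-1.04 and -0.61, limma adjusted p = 0.0871 and 0.114), and the dimmer (1433512_at) fell by 0.98 ± 0.13 at stage 1 and 0.94 ± 0.11 at stage 2 (SE, limma adjusted p = 0.0143 and 0.00213). Its stage 1 call was lost without any 1 of the 4 stage 1 arrays.

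Of 10 listed binding partners of Lmo4, 9 were named on the array and 7 tested, and 0 were called by limma at either stage, with 1 at an unadjusted p under 0.05 each time. Il6st, the signalling chain gp130 of interleukin 6 receptors, was higher on every Id3KO array at its brightest probe set (0.99 and 0.55) and did not pass (limma adjusted p = 0.0930 and 0.135). Brca1 (-0.08 at each stage) and Deaf1 (0.03 and -0.04) did not pass. The list's medians were 0.03 and 0.01.

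Other genes with LIM domains moved in both directions. Of 15 tested of 20, Pdlim4, an actin-associated LIM protein, rose at both stages, Fhl2, a four-and-a-half LIM cofactor, and Zyx, the focal adhesion protein zyxin, fell at stage 2, and 12 did not pass at either stage. Pdlim4 read 146.9 and 211.8 in WT and 364.8 and 349.9 in Id3KO stage 1 cells, and 96.3, 95.9 and 97.9 against 253.7, 222.0 and 259.1 at stage 2. The differences were 1.02 ± 0.16 and 1.34 ± 0.13 (log2, SE, limma adjusted p = 0.0253 and 0.00108). At stage 1 the call of Pdlim4 was lost without WT stage 1 replicate 1, WT stage 2 replicate 2 or 3, or either Id3KO stage 1 array. Fhl2 fell at stage 2 by 0.83 ± 0.14 (SE, limma adjusted p = 0.0125) and lost its call without WT stage 2 replicate 2 or 3. At stage 1 it stood at -0.76 without passing (limma adjusted p = 0.0999). Zyx fell at stage 2 by 0.64 ± 0.12 (SE, limma adjusted p = 0.0217). It lost its call without WT stage 2 replicate 2 or 3 or Id3KO stage 2 replicate 1 or 2. Its dimmer probe set (1438552_x_at) stood at -0.25 at stage 2 and did not pass (limma adjusted p = 0.160). The medians of the list were -0.06 and -0.01. Among all genes 0.586% rose and 0.452% fell at stage 1, and 2.36% and 3.22% at stage 2. This list too was chosen with earlier results known, so nothing is read from how many of its genes were called.

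Genes linked to Lmo2 and Tal1 in progenitors and leukaemia were tested for 11 of the 16 named on the array. At stage 1, 1 rose and 0 fell, and at stage 2, 3 rose and 1 fell, with medians of 0.02 and 0.05. Of all genes, 0.586% rose and 0.452% fell at stage 1, and 2.36% and 3.22% at stage 2. The list was chosen with earlier results of these data known, so nothing is read from its counts. Mef2c, a MADS-box factor of lymphoid progenitors, was higher on every Id3KO array at all 5 of its probe sets. The brightest read 47.4 to 52.7 on the WT arrays, below the level of 55.1, and 92.9 to 181.2 on the Id3KO arrays, through which alone it was kept. With dim arrays set at that level, it was at least 2.53-fold higher at stage 1 and at least 2.24-fold higher at stage 2. These bounds were not tested, and the limma adjusted p of Mef2c (0.0378 and 0.0111) belongs to the measured differences. Its stage 1 call was lost without any 1 of the 5 WT arrays or either Id3KO stage 1 array. Of the 5 probe sets limma called 3 at stage 1 and all 5 at stage 2. However, 1421027_a_at, 1421028_a_at and 1451507_at were also dim on every WT array and kept through Id3KO arrays alone, so these counts add no support. The stage 2 call of 1451507_at was lost without any 1 of the 5 WT arrays or Id3KO stage 2 replicate 1 or 2. Myb, a factor of immature thymocytes, rose at stage 2 by 0.59 ± 0.10 (SE, limma adjusted p = 0.0124), from 635.5 to 749.3 on WT arrays to 1027 to 1107 on Id3KO arrays. At stage 1 it stood at 0.63 ± 0.12 without passing (limma adjusted p = 0.0591). A dimmer probe set (1450194_a_at) rose by 0.70 at each stage (limma adjusted p = 0.0306 and 0.00476). Its stage 1 call was lost without either stage 1 array of WT or of Id3KO, or without WT stage 2 replicate 3. A further one (1422734_a_at) passed at neither stage.

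Hhex, a homeobox gene that Lmo2 turns on in thymocytes when overexpressed, read 307.0, 259.3 and 324.1 in WT and 447.5, 405.6 and 454.2 in Id3KO stage 2 cells. It rose by 0.56 ± 0.13 (SE, limma adjusted p = 0.0455), a call lost without any 1 of 8 arrays, all but the 2 of Id3KO stage 1. Notch1, the receptor of T lineage commitment, fell at stage 2 by 0.72 ± 0.10 (SE, limma adjusted p = 0.00645). Its dimmer probe set (1418633_at) stood at -0.32 there and did not pass (limma adjusted p = 0.149). A dimmer probe set of Mycn fell by 0.88 ± 0.11 (1417155_at, SE, limma adjusted p = 0.00390), while its brightest stood at -0.05. Kit, Cd34, Meis1, Nfe2 and Aldh1a2 stayed in the dim range.

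**Figure D4:**
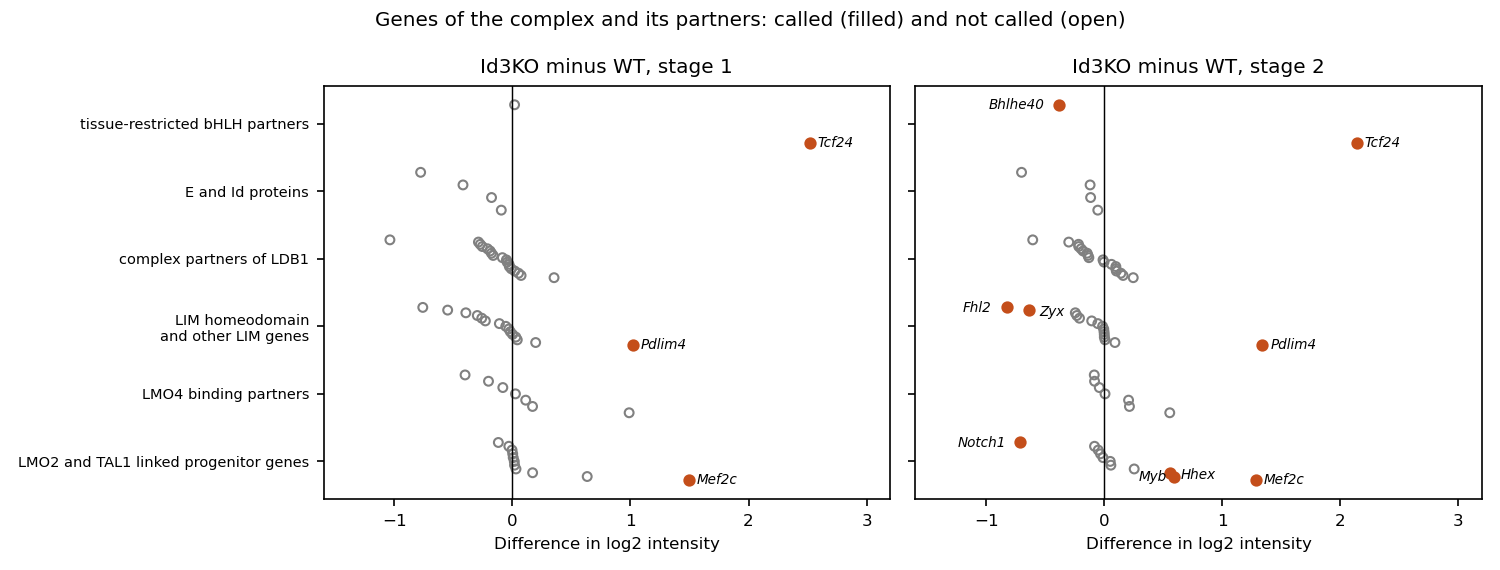
Difference in log2 intensity between Id3KO and WT cells (x axis) at stage 1 and stage 2 for the tested genes of 6 lists (y axis), 1 point per gene by its brightest probe set, without the members and Id3; filled points passed limma at an adjusted p under 0.05. Tcf24, Pdlim4 and Mef2c are filled at both stages, and no gene among the partners of Ldb1 or Lmo4 is; the points of Tcf24 and Mef2c are fitted differences from WT arrays below the level.

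Markers of other cells in which Lmo2, Lyl1 or Tal1 are active were mostly dim. Of 6 progenitor and mast cell markers named, Kit, Cd34, Mcpt4 and Ms4a2 did not exceed the level on 2 arrays, and the summed intensity was 263.0 to 287.7 in WT and 267.8 to 285.4 in Id3KO cells. One of the 6, Cpa3, a protease of mast cells and early progenitors, moved with Lmo2: it read 41.0 to 47.5 on WT and 46.7 to 59.8 on Id3KO arrays, and was higher on all Id3KO arrays within each stage without passing (limma adjusted p = 0.523 and 0.0938). Its part in the Lmo2 result was not tested. The 5 erythroid markers summed to 267.5 to 277.7 in WT and 268.0 to 276.0 in Id3KO cells, with Alas2 and Klf1 dim. At stage 2 Epor was higher (0.15) and Hba-a1 lower (-0.07) in Id3KO cells, each without overlap of arrays. Neither passed (limma adjusted p = 0.354 and 0.673), and their part in the Lmo2 result was not tested. The 6 endothelial markers summed to 280.8 to 297.5 and 284.3 to 298.7, with Cdh5 and Tek dim. The 8 myeloid and dendritic markers did move with Lmo2 at stage 2, with sums of 477.5 to 572.2 on Id3KO against 449.2 to 460.4 on WT arrays. The myeloid gene that separated the arrays was Fcer1g, the Fc receptor gamma chain also made by NK cells, at 109.1, 207.5 and 129.2 against 82.2, 87.5 and 87.6 (0.74 ± 0.21, SE, limma adjusted p = 0.0980). Lyz2 lay between 49.7 and 60.6 and Itgam between 36.4 and 40.9 on all arrays. At stage 1 the myeloid sums were 444.7 to 447.1 on Id3KO against 434.3 to 472.9 on WT arrays. The part of these genes in the stage 2 difference of Lmo2 was not tested. Replicate 2 of Id3KO stage 2 held the highest Fcer1g, and without it the difference of Lmo2 at stage 2 was 1.57 and that of Lmo4 -0.86. Fcer1g was also higher on the other Id3KO stage 2 arrays (109.1 and 129.2), so leaving this array out decides nothing about its part.

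Of the remaining markers, those of B cells summed to 351.1 to 710.4 in Id3KO stage 2 against 606.7 to 759.3 in WT stage 2 cells, a spread that came from Blk, while Ms4a1 was dim. Cd79b, a chain of the B cell receptor, moved with the genotype: it read 53.6 to 83.6 on the WT arrays and 49.7 to 52.9, in the dim range, on the Id3KO arrays, without overlap (limma adjusted p = 0.765 at stage 1 and 0.0914 at stage 2). Its part in the differences of Lmo2 and Lmo4 was not tested. At stage 1 their sums were 404.3 to 423.8 against 423.6 to 456.8. Double-positive thymocyte markers, with Rag1, Dntt and Cd8b1 dim, summed to 536.6 to 591.6 in Id3KO and 580.0 to 596.5 in WT cells, and thymic epithelial markers to 288.7 to 309.9 and 283.0 to 307.3. These sums take the brightest probe set of Epcam, which stood at 0.03 at each stage. Its dimmer one (1416579_a_at) was higher on all Id3KO arrays within each stage (0.62 and 0.29). It did not pass (limma adjusted p = 0.338 and 0.4825), and its part in the Lmo2 difference was not tested. Cd1d1, the lipid-presenting molecule, fell at stage 2 by 0.78 ± 0.17 (SE, limma adjusted p = 0.0436), a call lost without any 1 of 8 arrays, all but replicates 1 and 3 of Id3KO stage 2. Cd44, on which the stages were sorted, read 653.1, 797.2 and 858.0 in WT stage 2 cells and 577.0, 280.1 and 506.9 in Id3KO stage 2 cells, against 130.3 to 255.1 on the 4 stage 1 arrays. It stood lower in Id3KO cells at stage 2 on every array without passing (-0.82 ± 0.33, SE, limma adjusted p = 0.241), and its part in the stage 2 differences of Lmo2 and Lmo4 was not tested.

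The genes whose profile over the 10 arrays was most like that of each member were ranked by Pearson correlation of log2 intensity among 11402 genes. For Lmo2 they were Cd200, an inhibitory surface ligand (r = 0.986), Chst2, a sulfotransferase (0.979), Tox2, a nuclear factor of helper T cells (0.975), Zfand5, a zinc finger protein (0.974), and Hsbp1, which binds heat shock factor (0.971). Tox2 had mean intensities of 626 and 653 in WT and 1333 and 1807 in Id3KO cells at stages 1 and 2, and Cd200 of 111 and 103 against 148 and 186. Like Lmo2, each was brightest in Id3KO stage 2 cells.

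For Lmo4 they were Tiam1, which activates the small G protein Rac (r = 0.987), Rora, a nuclear receptor of interleukin 17 producing cells (0.972), the chromatin remodeller Chd9 (0.965), Plekho2 (0.964) and Rps6ka3, a kinase downstream of ERK (0.962). Tiam1 had means of 237 and 184 in WT and 85.6 and 107 in Id3KO cells, with the same order of groups as Lmo4. For Ldb1 the closest were Il17ra (0.924), a receptor for interleukin 17, Gnb2 (0.922), Tdp2 (0.921), Prune1 (0.919) and Chpf2 (0.909). For Lyl1 they were C2cd5 (0.930), Stoml2 (0.909), Rnf128 (0.908), Sft2d1 (0.897) and Nck2 (0.884). These correlations are a description over arrays that share genotype and stage, and they follow from the group differences as much as from the spread within groups.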

How the data were processed

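RNA of sorted cells was amplified by a 2-cycle protocol and hybridised to Affymetrix arrays, per the labels' protocols. The authors deposited normalized intensities, one per probe set and array, from 29.0 to 15400 and not in log form; RMA is named, without a version, in the submitters' processing notes. Log2 was taken here. RMA gives no detection call, so the median of the table stood in for one.

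limma 3.58.1 in R 4.3.3 was fitted to 4 group means over all 10 arrays (6 residual and 2.80 prior degrees of freedom), two-sided, with Benjamini-Hochberg adjustment over 25061 kept probe sets and a call at an adjusted p under 0.05. Of the kept probe sets 20942 had 1 gene symbol, 593 several and 3526 none. A gene is its brightest probe set. The pipeline was tested on simulated data. Members and lists were chosen with earlier results of these data known. Named genes are the members, list genes and the 5 most correlated genes of each tested member, without predicted or unnamed gene models. Some listed genes, Rbbp8, Il2rg, Klrb1c and the Hbb genes among them, are not analysed here. Alternatives were other filters, normalizations, priors, weights and sample sets, a replicate block and each array left out.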

Additional observations from a re-analysis of the deposited data

Results flagged for a closer look

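Among the tested probe sets of the members and listed genes, 2, neither the brightest of its gene, had arrays of the genotypes apart in opposite directions at the stages. A probe set of Cbfa2t3 (1440963_at), the corepressor ETO2 of Tal1 complexes, stood at -0.18 (log2, Id3KO minus WT) at stage 1 and 0.086 at stage 2. A probe set of Zbtb16 (1427638_at) stood at -0.11 at stage 1 and 0.52 at stage 2. The differences between stages were 0.27 ± 0.11 and 0.63 ± 0.26 (SE), and neither passed limma's interaction test (adjusted p = 0.698 and 0.699). Groups of 2 or 3 arrays were too small to look for single outlying arrays.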

How the results depend on the processing

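No stage difference of a member passed in any setting. With stage 1 fitted alone, 16 probe sets were higher and 12 lower in place of 115 and 86, and with stage 2 alone 293 and 333 in place of 457 and 598. Leaving out 1 array gave 9 to 127 higher and 6 to 107 lower at stage 1, 238 to 409 and 264 to 491 at stage 2, 0 to 9 and 0 to 2 between stages in WT cells (3 and 1 with all arrays), and 0 to 1 lower in the interaction. With the replicate number as a block, 54 were higher and 45 lower at stage 1 and 0 and 0 between stages in WT. Deviations of same-numbered arrays from their group means correlated at -0.188 to 0.133. With 2 or 3 arrays a group, these values cannot decide whether the numbers pair the arrays. With the Id3KO stage 1 numbers crossed, chosen after seeing the data, the stage 1 counts were 93 and 76. WT stage calls were 6 higher with the stricter filter, 7 with quantile normalization or 1 probe set per gene, 8 with a trend and robust prior, and 31 higher and 11 lower with array weights; 0 were lower with only those arrays. In the interaction 1 was lower without a filter, with the stricter one or with the trend, and 2 with weights or 1 probe set per gene. With the stage fitted alone, stage 1 calls of Tcf24, Pdlim4, Fli1 (1433512_at), Myb (1450194_a_at) and Mef2c (1421028_a_at) were lost. So were stage 2 calls of Bhlhe40, Hhex, Cd1d1, Id2 (1422537_a_at) and Mef2c (1451507_at). A replicate block lost those calls of Pdlim4, Fli1, Myb, Bhlhe40, Hhex, Cd1d1 and Mef2c (1451507_at). It also lost the stage 1 call of the brightest Mef2c probe set. Unfiltered, the latter and the stage 2 calls of Hhex, Cd1d1 and Id2 (1422537_a_at) were lost. The causes were not tested. Differences near 0 changed sign when 1 array was left out. That of Lyl1 between stages in Id3KO cells ranged from -0.0013, without Id3KO stage 2 replicate 2, to 0.16. That of Bhlhe40 at stage 1 ranged from -0.067, without WT stage 1 replicate 1, to 0.10, and that of Notch1 at stage 1 from -0.27 to 0.027, without WT stage 1 replicate 2.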
